A study of Homo sapiens with 12 samples.

Results

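The 9 genes described here belong to fatty acid oxidation and its control by the peroxisome proliferator-activated receptors (PPARs). They are ANGPTL4, PDK4, PLIN2, CPT1A, SLC25A20, ACADVL, HADHA, PPARA and PPARD, taken by symbol from the 26364 gene rows of the count table. All 9 were present and all 9 were among the 14184 genes with enough counts to be tested. The RNA was from 1 established cell line, MDA-MB-231, derived from a human breast cancer that lacks estrogen receptor, progesterone receptor and HER2 amplification, and there were 3 wells in each of 4 groups. One group received 1 µM dexamethasone (DEX, a synthetic glucocorticoid) together with 8 µM SH4-54, which blocks the transcription factors STAT3 and STAT5. The others received 1 µM DEX alone, 8 µM SH4-54 alone, or no drug, and every group was treated for 24 h. A vehicle for the no-drug wells was not named in the labels. Since replicates are wells of a single line, the p-values reflect only well-to-well spread.

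PPARs are nuclear receptors that bind fatty acids and related ligands, pair with a retinoid X receptor (RXR) and switch on genes for the use and storage of fat. Long-chain fatty acids enter mitochondria as carnitine esters: CPT1A makes the ester at the outer membrane and SLC25A20 carries it across the inner membrane. ACADVL and HADHA carry out steps of beta-oxidation, which comes after this entry and does not act on the carnitine ester itself. PDK4 inactivates pyruvate dehydrogenase and so spares glucose, ANGPTL4 is a secreted inhibitor of lipoprotein lipase, and PLIN2 coats lipid droplets. ANGPTL4 and PDK4 are textbook targets of both PPARs and the glucocorticoid receptor.

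The start regions of ANGPTL4 and PDK4 are shown because these genes had the largest responses among the 9. Each stretch runs 5′ to 3′ on the gene's own strand, from 250 bases before the gene start to 50 bases after it (RefSeq, GRCh38.p14). Capitals mark the motif matches described after them.
ANGPTL4, chr19:8363905-8364204, plus strand: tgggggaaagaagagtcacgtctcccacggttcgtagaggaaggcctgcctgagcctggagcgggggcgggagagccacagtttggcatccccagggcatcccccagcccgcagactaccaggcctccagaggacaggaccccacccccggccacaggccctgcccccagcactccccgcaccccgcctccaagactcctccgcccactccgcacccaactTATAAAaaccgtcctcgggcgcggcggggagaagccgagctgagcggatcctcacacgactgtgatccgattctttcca
PDK4, chr7:95596467-95596766, minus strand: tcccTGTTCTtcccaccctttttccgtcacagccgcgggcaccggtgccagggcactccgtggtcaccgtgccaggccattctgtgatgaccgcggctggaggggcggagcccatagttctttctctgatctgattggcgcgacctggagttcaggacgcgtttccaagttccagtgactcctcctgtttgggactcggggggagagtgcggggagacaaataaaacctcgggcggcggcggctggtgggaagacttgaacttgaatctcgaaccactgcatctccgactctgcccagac

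All 9 genes matched this promoter table, with 11 windows in all. On both strands the search covered the PPAR-RXR element (AGGTCA, any 1 base, AGGTCA), its half-site AGGTCA, the glucocorticoid response element (AGAACA, any 3 bases, TGTTCT), its half-site AGAACA and the STAT site TTCNNNGAA, and on the gene's strand the TATA box TATAAA. A half-site also lies inside each full element. The ANGPTL4 window held a TATA box at -29 from the gene start, a motif found in 7.33% of all 35116 promoter windows of this length. The PDK4 window held 1 glucocorticoid receptor half-site, read on the opposite strand, at -246 from the start, and the PPARD window held 1 at -229. Of all windows, 14.8% hold this half-site. The windows of the 9 genes held no match to the PPAR-RXR element (0.0228% of all windows), the full glucocorticoid response element (0.00285%), AGGTCA (13.8%) or the STAT site (7.66%). A match or its absence describes these letters only.

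The libraries with both compounds held 26280158 to 35758236 counted reads, those with DEX 26040956 to 29426776, those with SH4-54 25577213 to 28864061 and those without drug 28439725 to 31552360. CPM are read counts scaled to a common library size with the trimmed mean of M-values. VIM, CD44 and AXL, which mark this mesenchymal line, were abundant (853 to 1320, 279 to 478 and 669 to 920 CPM as group means), and ESR1 and PGR averaged at most 0.139 and 0.366 CPM in any group. CDH1, an epithelial marker listed as absent or low in this line, averaged 8.06 to 14.2 CPM. The adipocyte and hepatocyte markers ADIPOQ, LEP, ALB and APOB averaged at most 0.038 CPM in any group. The combination wells differed more among themselves than the DEX wells did: on the second principal component of log2 CPM they lay at -22.3, -31.4 and -13, against 15.9 to 17.9 for DEX. The sign ± gives the SD over 3 wells for CPM and the standard error for log2 fold changes, and a gene is called higher or lower at an edgeR adjusted p below 0.05 over all tested genes.

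DEX alone changed 8 of the 9 genes. ANGPTL4, PDK4, PLIN2, PPARA and CPT1A rose, PPARD, ACADVL and HADHA fell, and SLC25A20 did not pass. Across all tested genes 45.1% passed in this comparison, 21.9% higher and 23.2% lower. The rises were of unequal size, from 15.9-fold for ANGPTL4 to 1.1-fold for CPT1A. The median log2 fold change of the 9 was 0.13, beside -0.01 over all tested genes.

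ANGPTL4 stood at 68.3, 61.3 and 71.5 CPM in the wells with both compounds, at 72.3, 71.5 and 73.2 CPM with DEX, at 8.04, 8.00 and 6.75 CPM with SH4-54 and at 5.04, 4.38 and 4.18 CPM without drug. The 6 wells with DEX were high and the 6 without it low, and the lowest SH4-54 well lay above the highest no-drug well. With DEX alone the log2 fold change against no drug was 3.99 ± 0.080 (edgeR adjusted p = 3.08e-14). In bulk RNA, a change in the share of cells that express a gene and a change in RNA per cell cannot be told apart.

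PDK4 had 12.1, 10.3 and 13.5 CPM with both compounds, 10.6, 10.8 and 11.3 CPM with DEX, 5.09, 5.07 and 5.29 CPM with SH4-54, and 5.82, 3.98 and 3.83 CPM without drug. Every DEX-treated well lay above every well without DEX. The no-drug wells spanned the SH4-54 wells, replicate 1 being the high one. The rise with DEX against no drug was 2.38-fold (log2 1.25 ± 0.14, edgeR adjusted p = 2.43e-06), and it ranged from 1.15 to 1.48 on the log2 scale over the alternatives tried.

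PLIN2 had 289, 269 and 284 CPM with both compounds, 331, 335 and 346 CPM with DEX, 236, 240 and 235 CPM with SH4-54, and 227, 240 and 237 CPM without drug. The DEX wells were the highest, the combination wells came next, and the SH4-54 and no-drug wells overlapped. DEX alone raised this lipid droplet gene 1.44-fold over no drug (log2 0.52 ± 0.034, edgeR adjusted p = 8.97e-09).

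**Figure D1:**
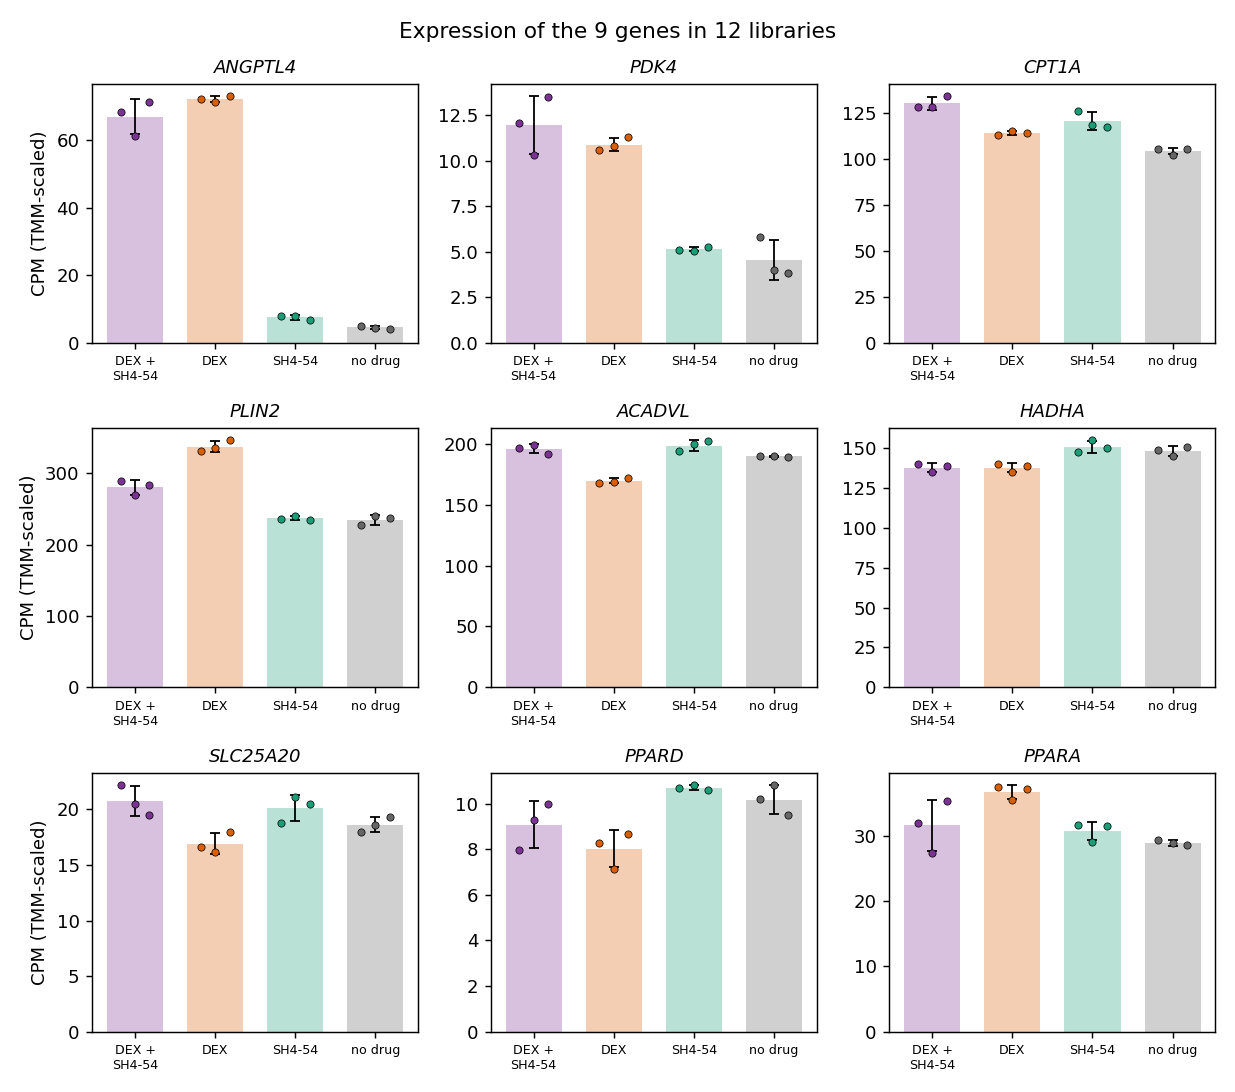
Expression of the 9 genes in CPM (vertical axes, each from 0) in the wells with both compounds, DEX, SH4-54 or no drug; points are single wells, bars the means and error bars the SD over 3 wells. ANGPTL4 and PDK4 parted the 6 wells with DEX from the 6 without it, while PLIN2 was highest with DEX alone and ACADVL lowest with DEX alone.

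Of the carnitine shuttle genes, CPT1A was higher with each compound and SLC25A20 passed in 1 of the 6 comparisons. CPT1A, which catalyses the committed step of mitochondrial fatty acid entry, had 128, 128 and 134 CPM with both compounds, 113, 115 and 114 CPM with DEX, 126, 118 and 117 CPM with SH4-54, and 105, 102 and 105 CPM without drug. No 2 of these 4 groups overlapped: the combination was highest, then SH4-54, then DEX, then no drug. Its log2 fold change was 0.13 ± 0.035 with DEX against no drug (edgeR adjusted p = 0.00561) and 0.32 ± 0.035 with both compounds against no drug (edgeR adjusted p = 2.96e-06). SH4-54 and DEX alone were not compared with each other.

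SLC25A20, the carnitine-acylcarnitine carrier, had 22.2, 20.5 and 19.5 CPM with both compounds, 16.6, 16.2 and 18 CPM with DEX, 18.8, 21.1 and 20.5 CPM with SH4-54, and 18, 18.6 and 19.3 CPM without drug. The combination wells lay above the DEX wells, and the DEX and no-drug wells overlapped. Both compounds against DEX gave 0.29 ± 0.065 (edgeR adjusted p = 0.0048), whereas DEX against no drug gave -0.14 ± 0.065 with an interval from -0.28 to 0.00 (edgeR adjusted p = 0.103). Both compounds against no drug gave 0.15 ± 0.064 (edgeR adjusted p = 0.0651). That value passed under the stricter count filter (edgeR adjusted p = 0.0457), without SH4-54 replicate 1 (0.0488) and without combination replicate 3 (0.0277).

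Both beta-oxidation enzyme genes among the 9, ACADVL and HADHA, fell slightly with DEX. ACADVL, the first dehydrogenase for very long chains, had 197, 199 and 192 CPM with both compounds, 168, 169 and 172 CPM with DEX, 194, 200 and 202 CPM with SH4-54, and 190, 190 and 189 CPM without drug. The 3 DEX wells were the lowest of the 12. DEX against no drug gave -0.16 ± 0.028 (edgeR adjusted p = 0.000304), and both compounds against DEX gave 0.21 ± 0.028 (edgeR adjusted p = 0.000187). Both compounds against no drug gave 0.05 ± 0.028, interval -0.01 to 0.11, which did not pass (edgeR adjusted p = 0.21) although those wells did not overlap.

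HADHA, the alpha subunit of the trifunctional protein, had 140, 135 and 139 CPM with both compounds and, to the same digits, 140, 135 and 139 CPM with DEX. It had 148, 155 and 150 CPM with SH4-54 and 149, 145 and 151 CPM without drug. Every well with DEX lay below every well without it. The log2 fold change was -0.10 ± 0.031 with DEX against no drug (edgeR adjusted p = 0.0127) and -0.13 ± 0.031 with both compounds against SH4-54 (edgeR adjusted p = 0.00344). The first of these was lost without DEX replicate 2 (edgeR adjusted p = 0.0587) and without no-drug replicate 3 (0.0558).

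The receptors themselves went opposite ways with DEX. PPARA, the receptor best known for fatty acid oxidation in liver, had 32.0, 27.4 and 35.3 CPM with both compounds, 37.5, 35.5 and 37.1 CPM with DEX, 31.6, 29.1 and 31.5 CPM with SH4-54, and 29.4, 28.9 and 28.5 CPM without drug. The DEX wells were the highest, and combination replicate 2 was the lowest of all 12. DEX raised it 1.27-fold over no drug (log2 0.34 ± 0.071, edgeR adjusted p = 0.00115).

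PPARD, the most widely expressed PPAR in textbook accounts, had 7.96, 9.27 and 10 CPM with both compounds, 8.28, 7.12 and 8.67 CPM with DEX, 10.7, 10.8 and 10.6 CPM with SH4-54, and 10.2, 10.8 and 9.52 CPM without drug. The DEX wells lay below the no-drug wells, and the combination wells overlapped both. Its log2 fold change with DEX against no drug was -0.34 ± 0.094 (edgeR adjusted p = 0.00745). Both compounds against no drug gave -0.16 ± 0.092 and did not pass (edgeR adjusted p = 0.183).

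SH4-54 alone, against no drug, changed ANGPTL4 and CPT1A, both upward. In this comparison 0.599% of all tested genes passed, 0.268% higher and 0.331% lower. ANGPTL4 rose 1.67-fold (log2 0.74 ± 0.095, edgeR adjusted p = 0.00163), and this call held in all 19 alternatives. CPT1A rose 1.16-fold (log2 0.21 ± 0.035, edgeR adjusted p = 0.0108), a call lost without no-drug replicate 2 (edgeR adjusted p = 0.0951). The other 7 genes had log2 fold changes between 0.01 and 0.17, none of which passed. The interval of the difference ran from -0.06 to 0.09 for PLIN2 and from -0.14 to 0.49 for PDK4, so a change in PDK4 of the size seen for CPT1A was not detectable with these wells.

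SH4-54 added to DEX changed 5 of the 9 genes relative to DEX alone: SLC25A20, ACADVL and CPT1A were higher, PLIN2 and PPARA lower. Of all tested genes 26.6% passed here, 13% higher and 13.5% lower. PLIN2 fell to 0.832 times its DEX level (log2 -0.26 ± 0.034, edgeR adjusted p = 0.000102), and CPT1A rose by 0.19 ± 0.035 (edgeR adjusted p = 0.00142). PPARA had -0.21 ± 0.071 (edgeR adjusted p = 0.0387), a call lost in 6 of 19 alternatives. Its adjusted p was 0.107, 0.0606 or 0.0977 without DEX replicate 1, 2 or 3, 0.0754 or 0.158 without combination replicate 1 or 2, and 0.0823 with the libraries of those groups alone. ANGPTL4 and PDK4 did not pass, with -0.11 ± 0.062 (interval -0.24 to 0.02, edgeR adjusted p = 0.218) and 0.14 ± 0.12 (interval -0.12 to 0.40, edgeR adjusted p = 0.423).

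**Figure D2:**
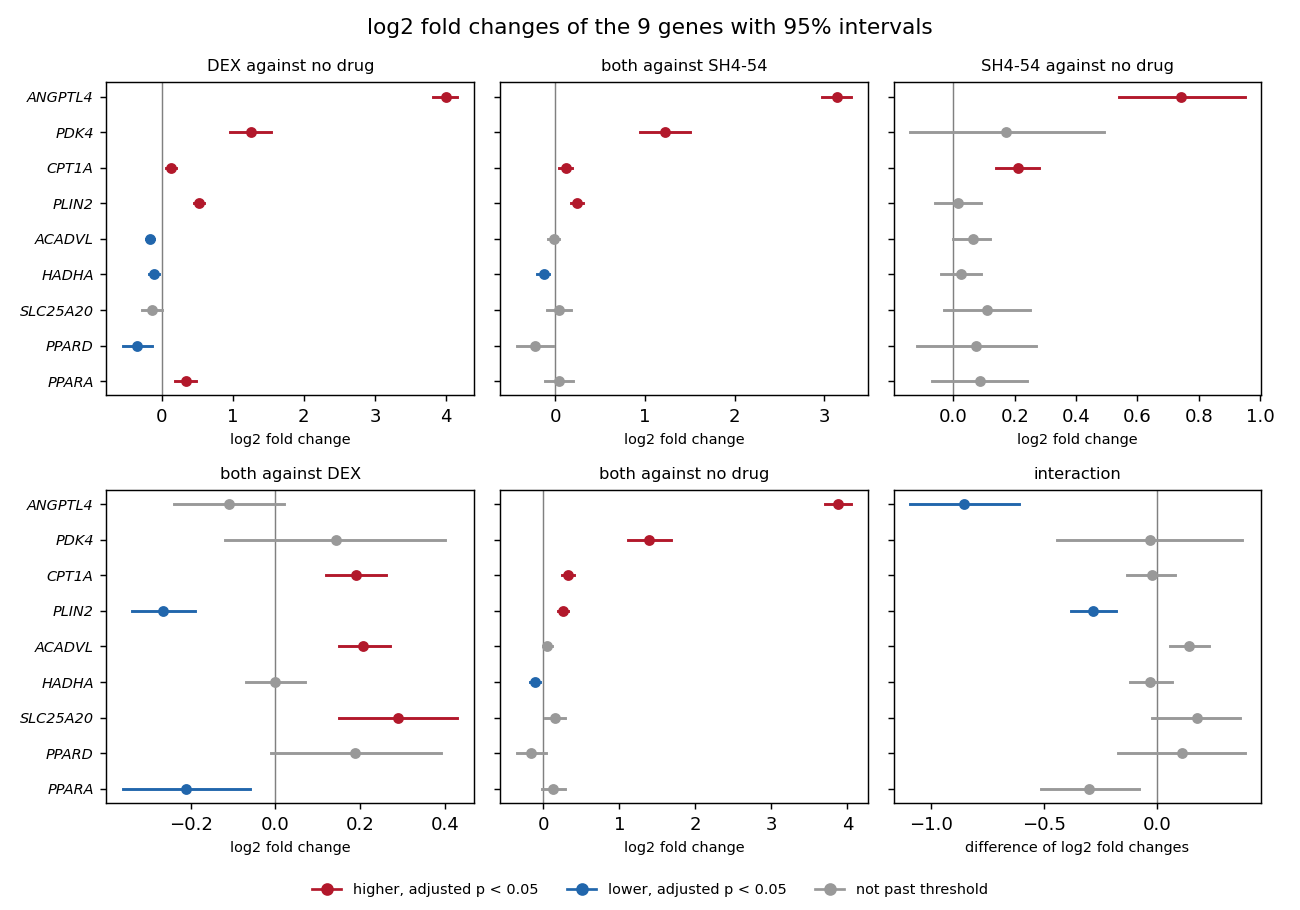
log2 fold changes of the 9 genes in the 6 comparisons (horizontal axes, scaled separately in each panel) with 95% intervals; red is higher, blue lower and grey not past an adjusted p of 0.05. ANGPTL4 lay farthest from 0 in 5 panels, and with both compounds against DEX the farthest was SLC25A20 at 0.29.

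The effect of DEX was then measured in the presence of SH4-54 and set beside its effect without it. Both compounds against SH4-54 changed 5 genes, beside 40.4% of all tested genes (20.1% higher, 20.3% lower). ANGPTL4 rose by 3.14 ± 0.076, PDK4 by 1.22 ± 0.13, PLIN2 by 0.24 ± 0.034 and CPT1A by 0.11 ± 0.035 on the log2 scale, and HADHA fell. The CPT1A call (edgeR adjusted p = 0.0168) was lost without SH4-54 replicate 2 or 3 (0.0755 or 0.0811), without combination replicate 3 (0.0943) and with those groups alone (0.0668). PPARD, at -0.23 ± 0.092, did not pass (edgeR adjusted p = 0.0584) but did without DEX replicate 2 (0.0454) or combination replicate 3 (0.0171).

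The interaction, which is the DEX effect with SH4-54 minus the DEX effect without it, passed for ANGPTL4 and PLIN2, beside 3.9% of all tested genes (2.44% higher, 1.46% lower). For ANGPTL4 it was -0.85 ± 0.11 (edgeR adjusted p = 0.00185): DEX raised the gene by 3.14 with SH4-54 and by 3.99 without it. The combination differed from DEX by -0.11, which did not pass, and SH4-54 alone differed from no drug by 0.74, which did. For PLIN2 the interaction was -0.28 ± 0.048 (edgeR adjusted p = 0.00853), from DEX effects of 0.24 with SH4-54 and 0.52 without it, and here the SH4-54 and no-drug wells overlapped while the combination wells lay below the DEX wells. Both calls held in all 18 alternatives run for the interaction. PDK4 had an interaction of -0.03 ± 0.19 with an interval from -0.44 to 0.38, which leaves room for a difference of either sign. ACADVL (0.14 ± 0.040, edgeR adjusted p = 0.0633) passed without combination replicate 3 (0.0377) and under the stricter filter (0.0481), and PPARA (-0.30 ± 0.10, edgeR adjusted p = 0.108) passed without combination replicate 3 (0.00599).

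Both compounds against no drug left 5 genes changed, beside 42.7% of all tested genes (21.1% higher, 21.6% lower). ANGPTL4 was 14.8-fold higher (log2 3.88 ± 0.080), PDK4 2.63-fold (1.39 ± 0.13), CPT1A 1.25-fold and PLIN2 1.2-fold (0.26 ± 0.034), while HADHA was lower at -0.10 ± 0.031 (edgeR adjusted p = 0.0126, or 0.0528 without no-drug replicate 3). PPARA gave 0.13 ± 0.071 (edgeR adjusted p = 0.16) and passed without combination replicate 2 (0.00574), its lowest well. The comparisons share their control wells, so they are not independent of each other.

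Beyond these 9, 81 further genes of fatty acid oxidation and PPAR signalling were listed in 7 groups by role, of which 71 were tested. DEX against no drug changed 40 of the 71, 29 higher and 11 lower, beside 45.1% of all tested genes, with a median log2 fold change of 0.10 beside -0.01 over all tested genes. For 3 of them, ABCD2, CIDEC and CREB3L3, every library of 1 compared group held under 10 reads, so the count filter was passed elsewhere and their direction was fixed by it. Of the other 68, 27 were higher and 10 lower. SH4-54 alone changed 1, beside 0.599% of all tested genes: the phosphatidate phosphatase and PPAR coactivator gene LPIN1, which was lower (log2 fold change -0.36 ± 0.050, edgeR adjusted p = 0.00326). SH4-54 added to DEX changed 28, 1 higher and 27 lower, beside 26.6% of all tested genes (13% higher, 13.5% lower), with a median of -0.11 beside 0.00 over all tested genes. Without combination replicate 2 that count was 17, 1 higher and 16 lower, and over all tested genes 2213 passed in place of 3770.

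With DEX, 5 of 10 tested genes that activate fatty acids or serve the carnitine shuttle rose and 1, CPT1C, fell. Of all tested genes 21.9% were higher and 23.2% lower with DEX. ACSL1, an acyl-CoA synthetase gene, averaged 151 ± 2.1 CPM with DEX and 53.5 ± 0.22 CPM without drug (2.82-fold, log2 standard error 0.11, edgeR adjusted p = 2.52e-08). ACSL3, whose product sits on lipid droplets, averaged 743 ± 15.5 CPM with DEX and 380 ± 8.2 CPM without drug (0.97 ± 0.064, edgeR adjusted p = 1.26e-08). The carnitine transporter gene SLC22A5 also rose (0.67 ± 0.070).

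In the mitochondrial group 6 of 14 tested genes rose with DEX and the other 8 did not pass. Across all tested genes 45.1% passed with DEX, 21.9% higher and 23.2% lower. ACADVL and HADHA, which were not counted in that group, fell. ETFB, a subunit of the electron carrier that takes electrons from the dehydrogenases, rose by 0.60 ± 0.076 (edgeR adjusted p = 1.27e-05), and the auxiliary enzyme genes ECI1 and DECR1 by 0.35 ± 0.055 and 0.21 ± 0.049. In the peroxisomal group 7 of 9 genes other than ABCD2 rose and 1, ABCD3, fell. HSD17B4, the peroxisomal bifunctional enzyme gene, rose by 0.49 ± 0.060 and ECH1 by 0.25 ± 0.060. The peroxisomal transporter gene ABCD2 had 18, 30 and 25 reads in the DEX libraries and 4, 0 and 1 in the no-drug libraries, and passed the filter through libraries with DEX.

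Of 8 tested lipid droplet and lipolysis genes other than CIDEC, 2 rose and 3 fell with DEX. The shares over all tested genes were 21.9% higher and 23.2% lower. G0S2, which encodes an inhibitor of the triglyceride lipase PNPLA2, averaged 6.46 ± 0.032 CPM with DEX and 11.3 ± 0.81 CPM without drug (-0.81 ± 0.080, edgeR adjusted p = 8.81e-07). ABHD5, which encodes the activator of that lipase, rose by 0.37 ± 0.036 (edgeR adjusted p = 7.1e-07). CIDEC, a droplet fusion gene, had 45, 53 and 43 reads with DEX and 0, 2 and 0 without drug, and also passed the filter through libraries with DEX.

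Of 10 further tested PPAR-responsive genes other than CREB3L3, 3 rose with DEX and the rest did not pass. The mitochondrial carrier gene UCP2 averaged 41.1 ± 2.9 CPM with DEX and 18.9 ± 0.37 CPM without drug (1.12 ± 0.059, edgeR adjusted p = 1.06e-09). CREB3L3, a liver transcription factor gene, had 5, 7 and 8 reads with DEX and 28, 27 and 28 without drug, and passed the filter through libraries without DEX. Among the receptor partners 2 of 9 rose and 3 fell. Beside both groups, 21.9% of all tested genes were higher and 23.2% lower with DEX. PPARG, the third PPAR, rose by 0.20 ± 0.032 (edgeR adjusted p = 0.000121), and RXRA, the RXR partner, had -0.27 ± 0.042 (edgeR adjusted p = 8.95e-05).

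Of the kinase genes related to PDK4, PDK2 and PDK3 fell with DEX, and PDK1 was higher (0.20 ± 0.076, edgeR adjusted p = 0.0466). The PDK1 wells overlapped, with 18.9, 19 and 17.2 CPM with DEX and 17.6, 15.8 and 14.6 CPM without drug. This PDK1 call was not followed through the alternatives. In the group that controls pyruvate dehydrogenase and malonyl-CoA, 2 of 8 genes rose and 2 fell with DEX. Over all tested genes 21.9% rose and 23.2% fell. PDK2 averaged 12.5 ± 0.51 CPM with DEX and 17.9 ± 0.97 CPM without drug (-0.52 ± 0.063, edgeR adjusted p = 8.7e-06). PDK3 had -0.26 ± 0.079 (edgeR adjusted p = 0.0139), a call lost without DEX replicate 2 (0.0599) and without no-drug replicate 1 or 2 (0.0665 or 0.0507). PDHA1, which encodes the enzyme subunit that these kinases phosphorylate, rose by 0.23 ± 0.041 (edgeR adjusted p = 0.000256).

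**Figure D3:**
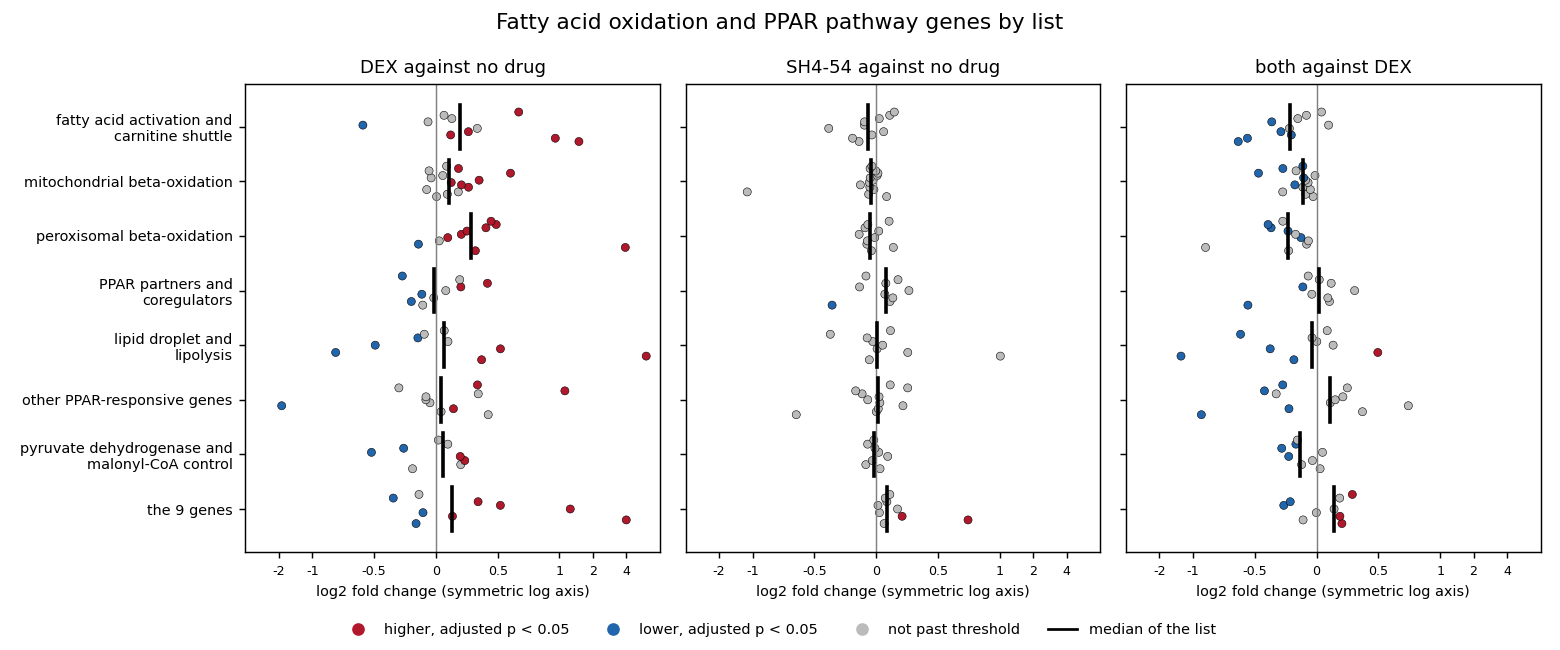
log2 fold changes (horizontal axis, linear between -1 and 1 and logarithmic beyond) of the tested genes of the 7 pathway groups and of the 9 genes, for DEX against no drug, SH4-54 against no drug and both compounds against DEX; red is higher, blue lower, grey not past an adjusted p of 0.05, and black lines are medians. With both compounds against DEX all 14 mitochondrial and all 10 peroxisomal genes lay below 0, with 5 and 4 of them called lower. Of all 14184 tested genes, 6931 lay below 0 and 13.5% were called lower in that comparison. CPT1A, SLC25A20 and ACADVL were called higher.

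When SH4-54 was added to DEX, the genes that passed were lower in all groups apart from 1 rise, that of G0S2. Across all tested genes 13% were higher and 13.5% lower in this comparison. Counting every tested gene, 5 of 9 receptor partners and 6 of 11 PPAR-responsive genes lay above 0, with medians of 0.02 and 0.11. In the activation group 5 of 10 fell and the rest did not pass: ACSL3 had -0.56 ± 0.064 (edgeR adjusted p = 4.79e-05), ACSL1 -0.63 ± 0.10 and ACSL5 -0.29 ± 0.045. Of the 14 mitochondrial genes 5 fell, including ETFB (-0.47 ± 0.076) and HADH (-0.27 ± 0.049). Of the 10 peroxisomal genes 4 fell, HSD17B4 (-0.39 ± 0.060) with the smallest p among them.

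G0S2 was higher with both compounds, at 9.14 ± 0.55 CPM, than with DEX, at 6.46 ± 0.032 CPM (0.50 ± 0.081, edgeR adjusted p = 0.000677), while 4 other droplet genes of the 9 tested fell, ABHD5 (-0.18 ± 0.036) and the hypoxia-linked droplet gene HILPDA (-0.37 ± 0.069) among them. UCP2 (-0.42 ± 0.057) and the catalase gene CAT (-0.22 ± 0.047) were 2 of 4 falls in the PPAR-responsive group. Of all tested genes 13.5% were lower with both compounds than with DEX. LPIN1 averaged 27.9 ± 1.6 CPM with both compounds and 41.1 ± 0.94 CPM with DEX (-0.56 ± 0.051, edgeR adjusted p = 6.62e-06), 1 of 2 falls among the receptor partners. In the pyruvate dehydrogenase group 3 of 8 fell, the phosphatase gene PDP1 (-0.17 ± 0.043) with the smallest p among them. The kinase genes PDK1 and PDK3, the other two, lost their calls without combination replicate 2 (edgeR adjusted p = 0.176 and 0.0764).

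The interaction passed for 5 of the 71 genes, beside 3.9% of all tested genes (1.46% lower). The 5 were all downward: ACSL5 (-0.35 ± 0.064, edgeR adjusted p = 0.0107), ETFB (-0.48 ± 0.11), ACSL3 (-0.37 ± 0.090), HSD17B4 (-0.32 ± 0.085) and HILPDA (-0.38 ± 0.10). ACSL5 kept its call in all 18 alternatives, and the other 4 lost theirs in fits without single libraries. Leaving out 1 library at a time moved the count from 1, for example without any one DEX replicate, to 17 without combination replicate 3. Over all tested genes the interaction calls, 553 in the main fit, ranged from 204 to 2046 when single libraries were left out. With DEX present, HSD17B4, ACSL1 and ACSL3 also varied widely among the combination wells, with SDs of 16 CPM around 133, 22.3 around 97.2 and 63.9 around 504.

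Both compounds against SH4-54 changed 31 of the 71 genes, 16 higher and 15 lower, beside 40.4% of all tested genes, a share near that of the pathway genes. ACSL1 (1.00 ± 0.11), UCP2 (0.86 ± 0.061), ACSL3 (0.60 ± 0.064) and SLC22A5 (0.56 ± 0.069) rose, and PDK3 (-0.53 ± 0.080), PDK2 (-0.49 ± 0.063) and LPIN1 (-0.30 ± 0.051) fell. Both compounds against no drug changed 27 of the 71, 12 higher and 15 lower, beside 42.7% of all tested genes, with SLC22A5 at 0.71 ± 0.069 and LPIN1 at -0.66 ± 0.050. The rises in both comparisons include ABCD2 and CIDEC, and without them 14 and 10 genes were higher.

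The genes whose profiles over the 12 libraries were nearest to those of ANGPTL4 and PDK4 were found by the root mean square difference of log2 CPM, each gene centred on its own mean. These 2 were the members whose group means spanned at least 1 on the log2 scale (3.98 and 1.4). Among the nearest to ANGPTL4 were KCCAT211 (0.243) and TSC22D3, a glucocorticoid target gene (0.299). Nearest to PDK4 were HSF2BP (0.141), LY6K (0.148) and CCDC80 (0.164).

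TSC22D3 averaged 75.5 ± 13.3 CPM with both compounds, 85.9 ± 1.9 CPM with DEX, 7.01 ± 1.1 CPM with SH4-54 and 6.81 ± 0.50 CPM without drug. The wells with DEX were high, as for ANGPTL4, and the SH4-54 and no-drug wells overlapped, which those of ANGPTL4 did not. TSC22D3 had 0.03 ± 0.15 with SH4-54 alone and -0.22 ± 0.18 for the interaction, and neither passed (edgeR adjusted p = 0.949 and 0.517). This contrast is with TSC22D3 only and did not hold for every gene near ANGPTL4. KCCAT211 had 1.65 to 1.75 CPM with SH4-54 and 1.19 to 1.53 CPM without drug, so these wells did not overlap either. It had 0.30 ± 0.20 with SH4-54 alone and -0.81 ± 0.225 for the interaction (edgeR adjusted p = 0.558 and 0.0578). HSF2BP, nearest to PDK4, averaged 9.86 ± 0.37 CPM with both compounds, 9.58 ± 0.32 CPM with DEX, 3.96 ± 0.36 CPM with SH4-54 and 3.62 ± 0.52 CPM without drug. These genes were selected by likeness in the same libraries, so the values are a description.

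**Figure D4:**
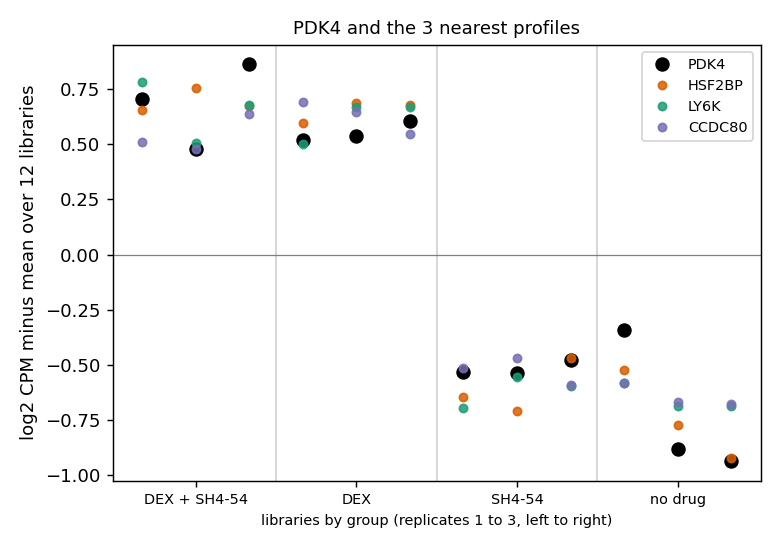
log2 CPM minus each gene's mean over the 12 libraries (vertical axis) by library and group (horizontal axis) for PDK4 (black) and the 3 genes nearest to it. The 6 wells with DEX lay above the 6 without it, and the PDK4 no-drug wells spread around its SH4-54 wells.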

How the data were processed

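The deposited data are raw read counts, 1 row per gene symbol and 1 column for each of 12 libraries. The submitters' processing notes name HISAT2 2.1.0 and featureCounts 1.5.1, besides SAMtools, and the builds hg19 and GRCh37. Not stated there are the annotation, the strand setting and the treatment of multi-mapping reads; overlapping and antisense genes and near-identical copies are uncertain. Per the labels' protocols, libraries were stranded, depleted of ribosomal RNA and read as 50 single-end bases. Groups follow the titles, although a treatment tag spells the inhibitor SH5-54.

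Counts were tested in R 4.3.3 with edgeR 4.0.16: filterByExpr, TMM scaling, and 1 quasi-likelihood model of the 4 groups over 12 libraries, with 6 comparisons and Benjamini-Hochberg adjustment over 14184 genes. Standard errors were derived from each log2 fold change and its F statistic; intervals are 95%. log2 CPM used a prior count of 2. The steps were tested on simulated data. Alternatives were DESeq2 1.42.0, its size factors in edgeR, no or a stricter count filter, a replicate block, the compared groups alone, the 10 most abundant genes removed, and each library left out. The members, lists and named-gene rule (all members; up to 3 called genes per list and comparison by smallest p; 3 nearest profiles) were chosen with earlier results of these data known. Genes given beyond that rule (CPT1C, ABCD3, PDK1 with DEX, and the comparisons of TSC22D3 and KCCAT211) were chosen after their values were seen. Some genes that the rule names are not reported here. Promoter sequences come from a RefSeq table of another build than the counts and serve as sequence only.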

Additional observations from a re-analysis of the deposited data

Results flagged for a closer look

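The DEX effect differed with and without SH4-54 for 2 of the 9 genes, by the interaction term of the model. Beside them, 3.9% of all tested genes passed for the interaction (2.44% higher, 1.46% lower). ANGPTL4 had a difference of -0.85 on the log2 scale (edgeR adjusted p = 0.00185), from 3.14 with SH4-54 and 3.99 without it. Its level with both compounds did not pass against DEX alone (-0.11, edgeR adjusted p = 0.218). With SH4-54 alone it was higher than without drug (0.74, edgeR adjusted p = 0.00163). PLIN2 had a difference of -0.28 (edgeR adjusted p = 0.00853), from 0.24 with SH4-54 and 0.52 without it.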

How the results depend on the processing

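Over 54 member values (9 genes in 6 comparisons) and 1017 refits, 982 kept direction and side of the threshold, 14 lost a call, 9 gained one and 12 changed sign; none of those 12 values was called in either fit. HADHA with both compounds against DEX was 0.00298 with the stricter filter. The other sign changes came without single libraries. Over all alternatives PLIN2 with SH4-54 ranged from -0.00835 to 0.0315, and HADHA with both against DEX from -0.0217 to 0.0136. With both against SH4-54, SLC25A20 ranged from -0.00782 to 0.0790 and PPARA from -0.0593 to 0.135. The interactions ranged from -0.256 to 0.0751 for PDK4 and from -0.0648 to 0.0139 for CPT1A. Left-out libraries moved the members called from 7 to 8 with DEX, 1 to 2 with SH4-54 (1 without no-drug replicate 2), 4 to 6 with both against no drug, 4 to 5 against DEX, 4 to 6 against SH4-54 and 2 to 4 for the interaction. For pathway genes the ranges were 1 to 2 with SH4-54, 17 to 34 with both against DEX and 1 to 17 for the interaction. With SH4-54 alone, 2 pathway genes passed by DESeq2 and with the compared groups alone. All genes called with SH4-54 numbered 85, but 181 by DESeq2, 176 without a filter, 155 with those groups alone and 26 to 163 without single libraries; for the interaction 553, but 848 without a filter and 204 to 2046 without single libraries; for both against DEX 3770, but 2213 without combination replicate 2. Same-numbered wells did not deviate together (18 pairs, correlations -0.0975 to 0.0926), and 2 of 12 libraries correlated best with their own number. These correlations show no shared deviation by number but cannot exclude that wells were handled in numbered sets. With the replicate block 2 pathway genes passed for the interaction in place of 5. The 3 wells of each group limit small changes: over all tested genes the median standard error (log2) was 0.0636 for DEX against no drug and 0.09 for the interaction.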

Other observations

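Several PPAR targets known from liver, muscle and fat were at or near 0 in every group. The 10 listed genes too low to be tested had at most 16 reads in any library. They include FGF21, a liver hormone gene, with at most 1 read, and the fatty acid uptake gene CD36 with at most 10. RXRB was listed at 0 in all 12 libraries. As the annotation and the treatment of multi-mapping reads were not stated, this 0 need not mean absent expression.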
